A study of Mus musculus with 2 samples.

Results

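The genes described here encode the enzymes that place and remove methyl groups on histone lysines, the enzymes that remove acetyl groups from them, and the HP1 and other factors that take part in gene silencing. They were taken as a list of 46 named mouse genes, and each was looked up by its symbol in a deposited table of 29126 entries, of which 20906 carry a gene symbol. An entry was found for 45 of the 46 genes, 44 of these had the status OK, which marks entries with enough reads to be quantified, and 43 of those reached an RPKM of 1 in either library. RPKM is a read number corrected for transcript length and library size, so levels of different genes can be set side by side on it. The same filters kept 11244 entries in all.

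Messenger RNA was sequenced in 1 library of Dnmt1+/+ mouse embryonic fibroblasts (MEFs) and 1 library of Dnmt1-/- MEFs. Dnmt1 is the maintenance DNA methyltransferase, which copies CpG methylation onto the new strand after replication. The cells called Dnmt1-/- carry a hypomorphic Dnmt1 allele on both chromosomes rather than a full deletion, and the study describes both MEF lines as also null for Trp53, the gene for p53. Both are established lines obtained from another laboratory, the labels give the strain as unknown, and neither the labels nor the study's methods used here give the age or sex of the embryos. The study compared the lines to ask how loss of DNA methylation affects chromatin and transcription, and the comparison below covers the mRNA of the chromatin enzymes.

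Methylation of histone H3 on lysine 9 and trimethylation of H4 on lysine 20 mark silent chromatin. H3 lysine 4 methylation marks promoters, and H3 lysine 36 and lysine 79 methylation lie over transcribed genes. Each mark is laid down by its own methyltransferases. Most of these marks can be taken off by the flavin-dependent LSD demethylases or by the JmjC demethylases, which use iron and 2-oxoglutarate. HP1 proteins bind methylated H3 lysine 9, TRIM28 is the corepressor that brings such writers to KRAB zinc finger targets, and histone deacetylases act in corepressor complexes beside them. DNA methylation and these histone marks meet at CpG-rich promoters and at heterochromatin.

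Dnmt1 itself, on chromosome 9, had 65.2 RPKM in Dnmt1+/+ and 14.5 RPKM in Dnmt1-/- MEFs, a log2 change of -2.16, so that RNA of the targeted gene was reduced but present. Trp53 had 18.6 and 19.9 RPKM, so reads were assigned to it in both libraries although the lines are described as null, and these values do not show whether the RNA is that of an intact gene. The change of a gene is the log2(RPKM + 0.1) of Dnmt1-/- minus that of Dnmt1+/+, a scale on which differences at low RPKM come out too small. The 2 libraries also differed in transcripts of the sex chromosomes: Xist was at 0.00648 RPKM in Dnmt1+/+ and 37.0 RPKM in Dnmt1-/- MEFs, and the Y-linked gene Uty was at 3.71 and 0.0135 RPKM. Genotype and this difference cannot be told apart, and none of the 46 genes lies on the X or Y chromosome. The summed level of 10 fibroblast markers was 6002 RPKM in Dnmt1+/+ and 3718 RPKM in Dnmt1-/- MEFs. Col1a2, Fn1 and Thy1 were more than 2-fold lower, Thy1 the most, at 4.84 and 0.129 RPKM. Pdgfra was more than 2-fold higher, at 6.95 and 18.7 RPKM. Sums over epithelial, endothelial and pluripotent or germ cell markers stayed below 1 RPKM in both libraries, and that over 4 blood cell markers was 2.12 and 6.90 RPKM, with Cd68 at 0.596 and 3.63 RPKM, Cd14 at 1.51 and 3.23 RPKM and the defining marker Ptprc listed at 0 in both. The part of these differences in the results below was not tested. As the cells were measured in bulk, fewer cells of a type and less RNA per cell cannot be told apart. As there was 1 library of each genotype, differences could not be checked against replicates, no p-value is given, and "lower" or "higher" describes these libraries only. The study gives the number of mapped reads of each library, but the RPKM values carry no counts. The reads behind each value were not worked out, and no interval is given.

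The 5 genes that lay more than 2-fold lower in Dnmt1-/- MEFs were the demethylases Kdm5b, Kdm4a and Kdm1a, the H4 lysine 20 methyltransferase Suv420h2 and the deacetylase Sirt1. The bases just before their annotated start sites are shown because CpG dinucleotides are the substrate of Dnmt1. Each is 250 bases, 5′ to 3′ on the strand of the gene, from the NCBIM37 (mm9) genome, and capitals mark each CG. The start is that of the annotated coding transcript nearest to the 5′ end of the gene's entry in the deposited table. No DNA methylation was measured in the values used here.
Kdm5b: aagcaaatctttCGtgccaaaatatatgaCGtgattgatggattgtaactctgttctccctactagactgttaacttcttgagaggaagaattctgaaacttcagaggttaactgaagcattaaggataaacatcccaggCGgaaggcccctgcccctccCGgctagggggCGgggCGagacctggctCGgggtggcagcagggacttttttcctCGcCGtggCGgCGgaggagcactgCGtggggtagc
Kdm4a: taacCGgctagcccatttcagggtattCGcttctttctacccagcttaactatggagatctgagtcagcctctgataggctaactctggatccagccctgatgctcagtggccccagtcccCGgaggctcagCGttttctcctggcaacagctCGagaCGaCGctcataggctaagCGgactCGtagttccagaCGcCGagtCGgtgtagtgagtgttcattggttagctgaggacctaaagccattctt
Kdm1a: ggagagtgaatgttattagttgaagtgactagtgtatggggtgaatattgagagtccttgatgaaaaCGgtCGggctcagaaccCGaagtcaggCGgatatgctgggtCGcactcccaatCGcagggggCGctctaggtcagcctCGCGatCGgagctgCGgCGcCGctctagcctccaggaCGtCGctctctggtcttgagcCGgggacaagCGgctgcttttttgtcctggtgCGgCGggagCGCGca
Suv420h2: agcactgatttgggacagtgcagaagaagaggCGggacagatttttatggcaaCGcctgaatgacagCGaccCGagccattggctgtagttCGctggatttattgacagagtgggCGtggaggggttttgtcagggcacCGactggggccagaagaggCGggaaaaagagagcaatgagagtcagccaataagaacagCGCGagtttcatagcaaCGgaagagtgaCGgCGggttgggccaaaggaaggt
Sirt1: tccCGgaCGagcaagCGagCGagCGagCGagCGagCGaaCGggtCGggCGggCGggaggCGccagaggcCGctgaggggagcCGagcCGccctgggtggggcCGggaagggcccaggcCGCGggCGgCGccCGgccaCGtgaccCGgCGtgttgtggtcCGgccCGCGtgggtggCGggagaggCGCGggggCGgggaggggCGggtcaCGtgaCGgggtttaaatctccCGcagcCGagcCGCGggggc

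The window of Sirt1 at chr10:62801784-62802033 (minus strand) held 39 CG, the most of the 5, and that of Kdm1a at chr4:136158639-136158888 (minus strand) held 21 CG. Suv420h2 at chr7:4691467-4691716 (plus strand) had 13 CG, while Kdm4a at chr4:117852649-117852898 (minus strand) and Kdm5b at chr1:136456498-136456747 (plus strand) had 12 CG each. A promoter was called CpG-rich if the 300 bases from 250 before to 50 after the start had at least 50% G and C and at least 0.6 of the CG expected from their base composition. All 5 of these promoters were CpG-rich, as were 38 of the 46 (82.6%), and 7821 of 10865 promoters of the entries that passed the filters (72.0%). The median ratio of observed to expected CG was 0.834 over the 46 genes and 0.787 over all promoters. CpG-rich promoters are common to this class of genes and to most expressed genes, and the 6 genes that lay higher in Dnmt1-/- MEFs had them as well. Among the motifs searched on both strands of the 300 bases, CCAAT was present in Suv420h2, Kdm1a and Kdm4a (38.7% of all promoters hold it), GGGCGG in Kdm5b and Sirt1 (67.1% of all), and TATAAA in none of the 5 (6.51% of all).

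**Figure D1:**
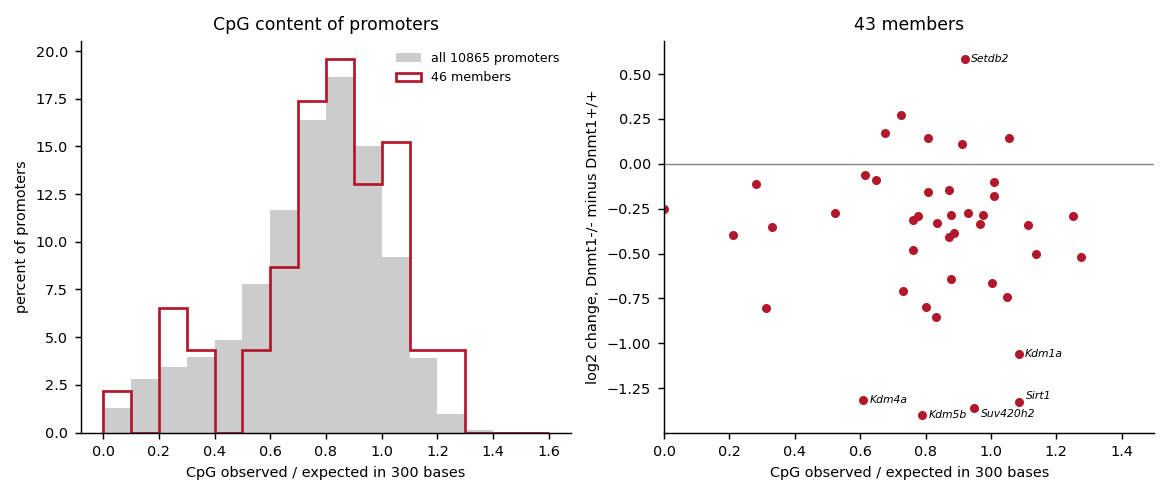
The left panel plots the percent of promoters (vertical axis) in each class of the ratio of observed to expected CG over 300 bases (horizontal axis), with all 10865 promoters in grey and the 46 genes as a red outline. The right panel plots the log2 change of the 43 genes that passed the filters against the same ratio; Kdm4a and Sirt1, both over 2-fold lower, lie at 0.610 and 1.09, and the 6 genes above 0 lie among the others.

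No gene of the 43 lay above 2-fold higher in Dnmt1-/- MEFs, against 8.47% of all entries that passed the filters. More than 2-fold lower were 5 of 43 (11.6%), close to the 10.9% of all entries, so this count does not set these genes apart from the table as a whole. At 1.5-fold, 1 of 43 was higher (2.33%, against 14.1% of all) and 12 of 43 were lower (27.9%, against 23.7% of all). Lower by any amount were 37 of 43 (86.0%), against 59.6% of all entries. The median log2 change was -0.33 over the 43 genes, with quartiles at -0.65 and -0.15, and -0.14 over all 11244 entries, with quartiles at -0.56 and 0.27. These genes were thus shifted a little further down than the table, over a narrower range and with hardly any higher values. With the median of all entries subtracted, 33 of 43 lay below 0. Among entries with a mean RPKM of at least 5, a minimum chosen after the data were seen, 4 of 38 of these genes were more than 2-fold lower and none higher, against 6.47% and 5.15% of 8017 entries. The median change of 15 ubiquitously expressed genes was -0.0047, and none of them passed 2-fold.

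**Figure D2:**
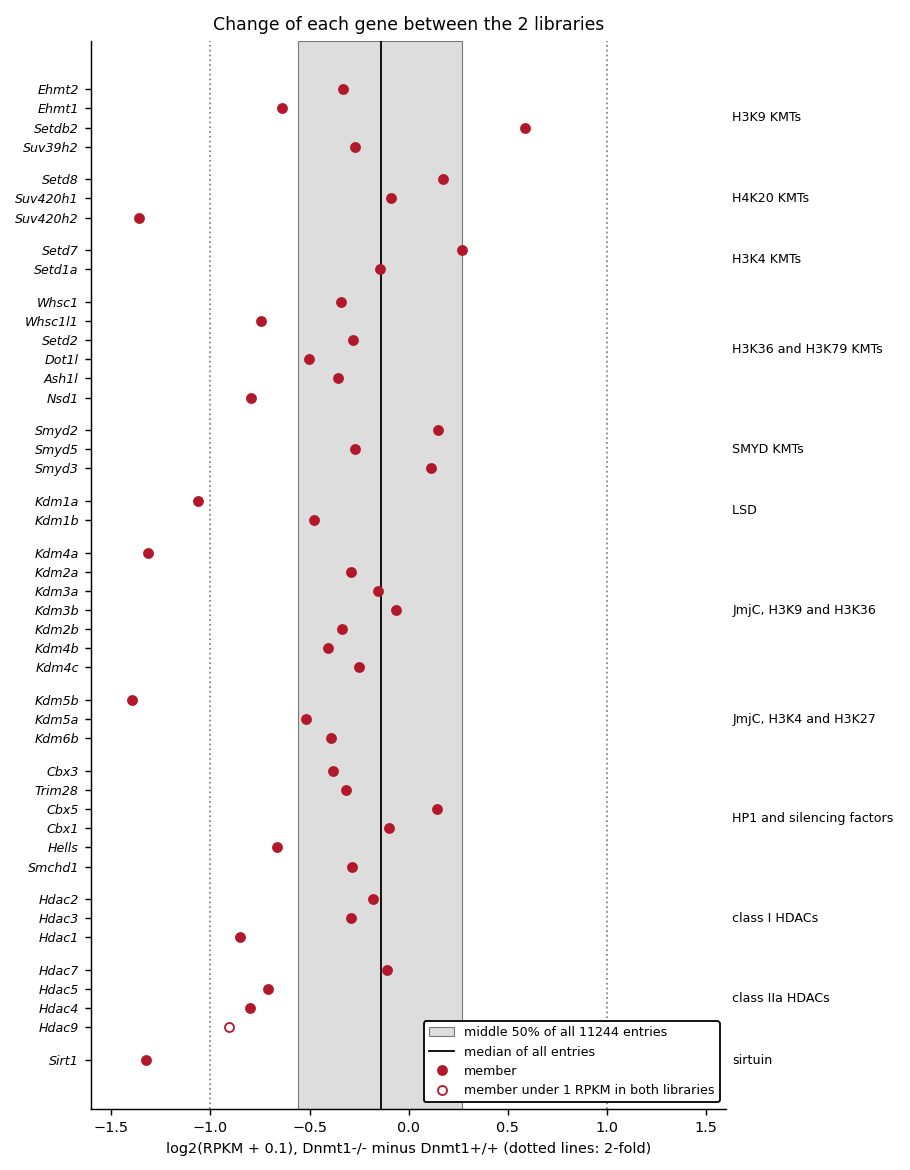
The change of each of 44 genes on the log2(RPKM + 0.1) scale, Dnmt1-/- minus Dnmt1+/+ MEFs, is plotted by enzyme class (KMTs, methyltransferases; HDACs, deacetylases; LSD and JmjC, demethylases). The grey band is the middle 50% of all 11244 entries, the black line their median of -0.14 and the dotted lines 2-fold. Kdm5b, Suv420h2, Sirt1, Kdm4a and Kdm1a lie left of the 2-fold line and no gene lies right of it.

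The levels covered a wide range and kept much of their order. Hdac2 had the highest level with 152 and 134 RPKM (Dnmt1+/+ first, here and in all pairs below), followed in both libraries by Cbx3 and Trim28. Ehmt2 was the fourth in Dnmt1+/+ MEFs, and in Dnmt1-/- MEFs it came after Cbx5 and Smyd2, with 61.1 RPKM against 64.7 and 61.2 RPKM. The lowest of the 43 in Dnmt1+/+ MEFs was Suv39h2 at 3.64 RPKM, and the lowest in Dnmt1-/- MEFs was Suv420h2 at 1.67 RPKM. The median level of the 43 was 18.3 and 14.8 RPKM. Across genes, which are not independent replicates, Pearson's r of the log2 levels of the 2 libraries was 0.956 over the 43 and 0.823 over all entries. The 43 were above 1 RPKM in both libraries, while all entries had to reach it in either library only. The 2 values of r thus come from sets of unlike level. The genes that lost most rank among the 43 were Kdm5b, from 21 to 33, Kdm4a, from 11 to 21, and Sirt1, from 32 to 40, while Setdb2 moved up from 39 to 29.

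**Figure D3:**
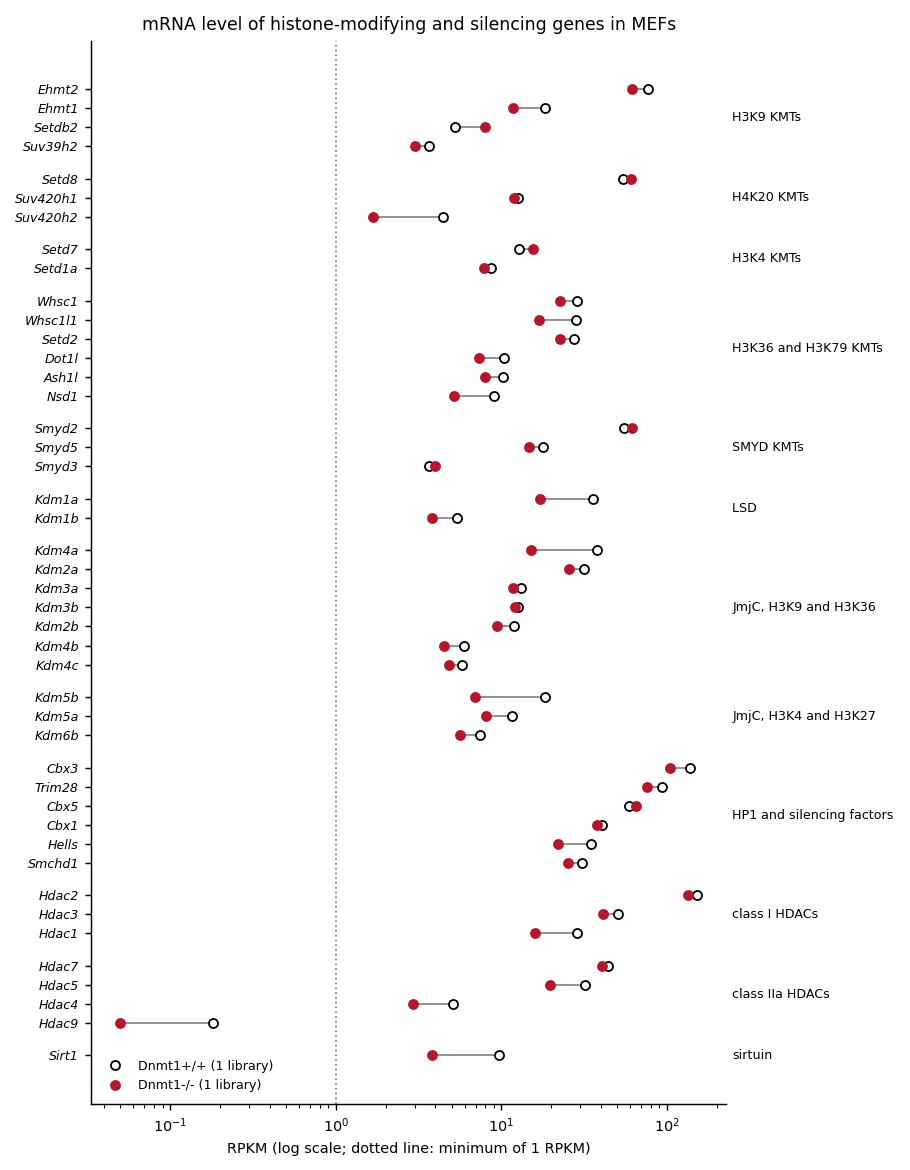
RPKM of each of 44 genes on a log axis in Dnmt1+/+ (open circles) and Dnmt1-/- MEFs (red circles), 1 library each, by enzyme class, with a dotted line at the minimum of 1 RPKM. Levels run from below 1 RPKM for Hdac9 to 152 RPKM for Hdac2, and most red circles lie a short way left of the open ones.

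Among the writers of H3 lysine 9 methylation, none passed 2-fold. Ehmt2, which encodes G9a, the main H3K9 mono- and dimethyltransferase of euchromatin, had 76.9 and 61.1 RPKM (log2 change -0.33). Its partner Ehmt1, or GLP, was at 18.3 and 11.7 RPKM (-0.64), and as G9a works as a heterodimer with GLP their ratio is of interest: Ehmt2 was 4.21 times the level of Ehmt1 in Dnmt1+/+ and 5.23 times in Dnmt1-/- MEFs. Suv39h2, which places H3K9 trimethylation on constitutive heterochromatin, was low in both at 3.64 and 2.998 RPKM. Setdb2, a SETDB1 relative with a domain like that of methyl-CpG-binding proteins, was the only one of the 43 above 1.5-fold higher, with 5.25 and 7.93 RPKM (0.59). It was just past that threshold, and with a pseudocount of 1 its change was 0.52, short of 1.5-fold. Setdb1, the H3K9 methyltransferase that TRIM28 recruits, was listed at 0 in both libraries with the status FAIL, and so was Lass2, whose exons overlap it on the other strand. These zeros come from entries that Cuffdiff could not quantify and are not levels.

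The writers of H4 lysine 20 methylation went separate ways. Setd8, the sole H4K20 monomethyltransferase, needed for replication and mitosis, had 54.2 and 61.0 RPKM (0.17). Suv420h1, which turns the monomethyl into the dimethyl mark genome-wide, had 12.7 and 11.9 RPKM (-0.09, or 0.05 with the median of all entries subtracted). Suv420h2, its relative that trimethylates H4K20 at pericentric heterochromatin through HP1, had 4.46 and 1.67 RPKM (-1.36). It is a gene of chromosome 7 (4691717 to 4699116, plus strand). The ratio of Suv420h1 to Suv420h2, which no scaling of the libraries alters, was 2.84 in Dnmt1+/+ and 7.11 in Dnmt1-/- MEFs. The level of Suv420h2 was among the lowest of the 43 in both libraries.

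The H3 lysine 4 writers showed small differences. Setd1a, the catalytic subunit of a COMPASS complex for promoter H3K4me3, had 8.70 and 7.87 RPKM (-0.14), and its exons overlap Hsd3b7 on the same strand. Setd7, a monomethyltransferase of H3K4 and of many other proteins, had 12.8 and 15.4 RPKM (0.27). Setd1b, the close relative of Setd1a, had no entry under its symbol. There are 4 unnamed entries that overlap its annotated gene (chr5:123592202-123617444), and they were looked at after their values had been seen. The entry that covered most of its exons, 7330 of 10874 exon bases, had 7.45 and 7.58 RPKM, and shorter ones had 4.06 and 2.92, 3.25 and 1.55, and 56.9 and 8.67 RPKM, the last over 123 bases. They are not counted among the 43.

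All 6 writers of H3 lysine 36 and lysine 79 methylation lay lower, against 59.6% of all entries. Their median log2 change was -0.43 and none passed 2-fold, against 10.9% of all entries past 2-fold lower. Setd2, the only known enzyme for H3K36me3 in transcribed genes, had 27.3 and 22.5 RPKM. The NSD enzymes, which dimethylate H3K36, ranged from a small to a larger difference. Nsd1 had 9.02 and 5.15 RPKM (-0.80), Whsc1, also known as Nsd2, had 28.5 and 22.5 RPKM (-0.34), and Whsc1l1 or Nsd3 had 28.2 and 16.8 RPKM (-0.74). The Whsc1l1 values come from an entry that joins it with the neighbouring Ppapdc1b, so they are not those of 1 gene. Ash1l, an H3K36 dimethyltransferase of the trithorax group, had 10.2 and 7.93 RPKM (-0.35), and Dot1l, the sole H3K79 methyltransferase, had 10.4 and 7.34 RPKM (-0.50). In the SMYD family, enzymes with a SET domain split by a MYND zinc finger, Smyd2 had 55.2 and 61.2 RPKM, Smyd3 had 3.68 and 3.98 RPKM and Smyd5 had 17.9 and 14.8 RPKM. Smyd2 and Smyd3 were thus among the 6 genes that lay higher, with Setdb2, Setd7, Setd8 and Cbx5. Over the 18 methyltransferases that passed the filters, 13 were lower and 5 higher, and the median log2 change was -0.28.

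All 12 demethylases lay lower in Dnmt1-/- MEFs, except that Kdm3b is at 0.08 with the median of all entries subtracted. Their median log2 change was -0.40, and 3 were past 2-fold. Of all entries, 59.6% lay lower and 10.9% were past 2-fold lower. Kdm1a, or LSD1, removes mono- and dimethylation from H3K4 as a subunit of the CoREST complex, and had 35.7 and 17.0 RPKM (-1.06). It lies on chromosome 4 (136106455 to 136158638, minus strand). Its relative Kdm1b, or LSD2, known for setting up maternal imprints in oocytes, had 5.37 and 3.83 RPKM (-0.48). Kdm1a was just past the threshold, and the next gene short of it was Hdac1 at -0.85. With the median change of all entries subtracted Kdm1a was at -0.92, and the count past 2-fold was then 4.

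Of the JmjC demethylases that act on H3K9 and H3K36, Kdm4a alone passed 2-fold. Kdm4a, which removes trimethylation from both residues and lies on chromosome 4 (117809562 to 117852648, minus strand), had 37.5 and 15.0 RPKM (-1.31). Its relatives Kdm4b, at 5.96 and 4.47 RPKM (-0.41), and Kdm4c, at 5.79 and 4.84 RPKM (-0.25), were far lower in Dnmt1+/+ MEFs. Kdm4a was 6.30 times the level of Kdm4b in Dnmt1+/+ and 3.36 times in Dnmt1-/- MEFs, so it still led its family. Kdm2a, an H3K36 demethylase that binds unmethylated CpG through a CXXC zinc finger, had 31.4 and 25.7 RPKM (-0.29). Kdm2b, its relative that brings a variant PRC1 complex to CpG islands, had 11.8 and 9.36 RPKM (-0.34), and part of its transcript matches another place in the genome at 99.6% identity. The H3K9 demethylases Kdm3a, at 13.1 and 11.7 RPKM (-0.15), and Kdm3b, at 12.6 and 12.0045 RPKM (-0.06), had among the smallest differences.

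Kdm5b had the most negative change of the 43 genes on the log2(RPKM + 0.1) scale, while without the added 0.1 the ratio for Suv420h2 was 2.67-fold and that for Kdm5b 2.66-fold. It encodes JARID1B, which removes di- and trimethylation from H3K4, lies on chromosome 1 (136456748 to 136529454, plus strand), and had 18.4 and 6.93 RPKM (-1.40). Its relative Kdm5a had 11.6 and 8.08 RPKM (-0.52). Kdm5b was thus 1.59 times the level of Kdm5a in Dnmt1+/+ MEFs and 0.857 times in Dnmt1-/- MEFs, so the order of these 2 genes was turned. Kdm6b, or JMJD3, which removes H3K27 methylation, the mark of Polycomb silencing, had 7.44 and 5.64 RPKM (-0.39).

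The HP1 proteins and silencing factors had levels above 20 RPKM in both libraries, and Hells was the one of the 6 past 1.5-fold. Trim28 had 93.6 and 75.2 RPKM (-0.31). Of the HP1 genes, Cbx3 for HP1γ had 137 and 105 RPKM (-0.38), Cbx5 for HP1α had 58.6 and 64.7 RPKM (0.14), and Cbx1 for HP1β had 40.7 and 37.9 RPKM (-0.10). Cbx3 has 5 near-identical copies elsewhere in the genome (at least 95% identity over at least 200 bases), so its reads may have been split. Hells, or LSH, a chromatin remodeller needed for normal DNA methylation at repeats, was at 35.0 and 22.0 RPKM (-0.66), past 1.5-fold. Smchd1, a noncanonical SMC protein of the inactive X chromosome and of imprinted clusters, had 30.7 and 25.2 RPKM (-0.29). The median log2 change of the 6 genes was -0.30. Lower were 5 of 6, against 59.6% of all entries. With the median of all entries subtracted, 4 of 6 were lower and Cbx1 is at 0.04.

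All 7 deacetylases that passed the filters lay lower, except that Hdac7 is at 0.03 with the median of all entries subtracted. Of all entries, 59.6% lay lower. The median log2 change of the 7, -0.71, was the lowest of the 4 groups. The class I enzymes Hdac1 and Hdac2 are the paired catalytic subunits of the SIN3, NuRD and CoREST complexes, and Hdac3 is that of NCOR. Hdac2 had 152 and 134 RPKM (-0.18), Hdac1 had 28.8 and 15.9 RPKM (-0.85) and Hdac3 had 50.5 and 41.2 RPKM (-0.29). The ratio of Hdac2 to Hdac1 was 5.29 in Dnmt1+/+ and 8.45 in Dnmt1-/- MEFs, and Hdac1 has 1 near-identical copy at 98.8% identity that could take some of its reads. The class IIa enzymes are signal-dependent corepressors of MEF2 factors with little activity of their own. Hdac4 had 5.14 and 2.91 RPKM (-0.80), Hdac5 had 32.2 and 19.6 RPKM (-0.71) and Hdac7 had 43.8 and 40.6 RPKM (-0.11). Hdac9 was near 0 in both, at 0.181 and 0.050025 RPKM, and was left out of the counts. Sirt1, the NAD-dependent deacetylase of histones and of many transcription factors, p53 among them, had 9.65 and 3.79 RPKM (-1.33). Sirt1 is annotated on chromosome 10 from 62781753 to 62844452 on the minus strand, and Gm16145 overlaps its exons on the other strand. The libraries were strand-specific, but whether counting used the strand is not given in the sources used here. The same overlap on the other strand holds for 12 of the 46 genes, and among the 5 past 2-fold for Sirt1 only.

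Summed over close relatives, members outside the 46 included, 4 of the 6 demethylase families lay lowest. The grouping was made after values had been seen, and the sums are on the linear RPKM scale. The KDM4 family summed to 49.3 and 24.6 RPKM, the KDM1 family to 41.1 and 20.9 RPKM, the KDM5 family to 75.1 and 37.8 RPKM and the KDM6 family to 16.2 and 8.89 RPKM. In KDM1 and KDM4 a single gene, Kdm1a or Kdm4a, made most of the sum and of the difference. In KDM5 every gene was lower: the X-linked Kdm5c, the most abundant, had 39.2 and 22.8 RPKM, and the Y-linked Kdm5d had 5.90 RPKM and was listed at 0 in Dnmt1-/- MEFs. In KDM6 the Y-linked Uty took 3.71 of the 16.2 RPKM in Dnmt1+/+ MEFs and the X-linked Kdm6a had 5.06 and 3.24 RPKM, so the sex-linked genes enter both of these sums. The KDM2 and KDM3 sums were 43.3 and 35.0 RPKM, and 38.3 and 31.0 RPKM. The HP1 sum was 236 and 207 RPKM, that of class I deacetylases 243 and 197 RPKM, that of class IIa 81.3 and 63.2 RPKM, and that of G9a and GLP 95.2 and 72.8 RPKM. SUV420 summed to 17.1 and 13.6 RPKM, where Suv420h1 held most of the level and Suv420h2 most of the difference. The SUV39 pair was the exception, with 19.2 and 41.3 RPKM, through the X-linked Suv39h1 at 15.6 and 38.3 RPKM.

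**Figure D4:**
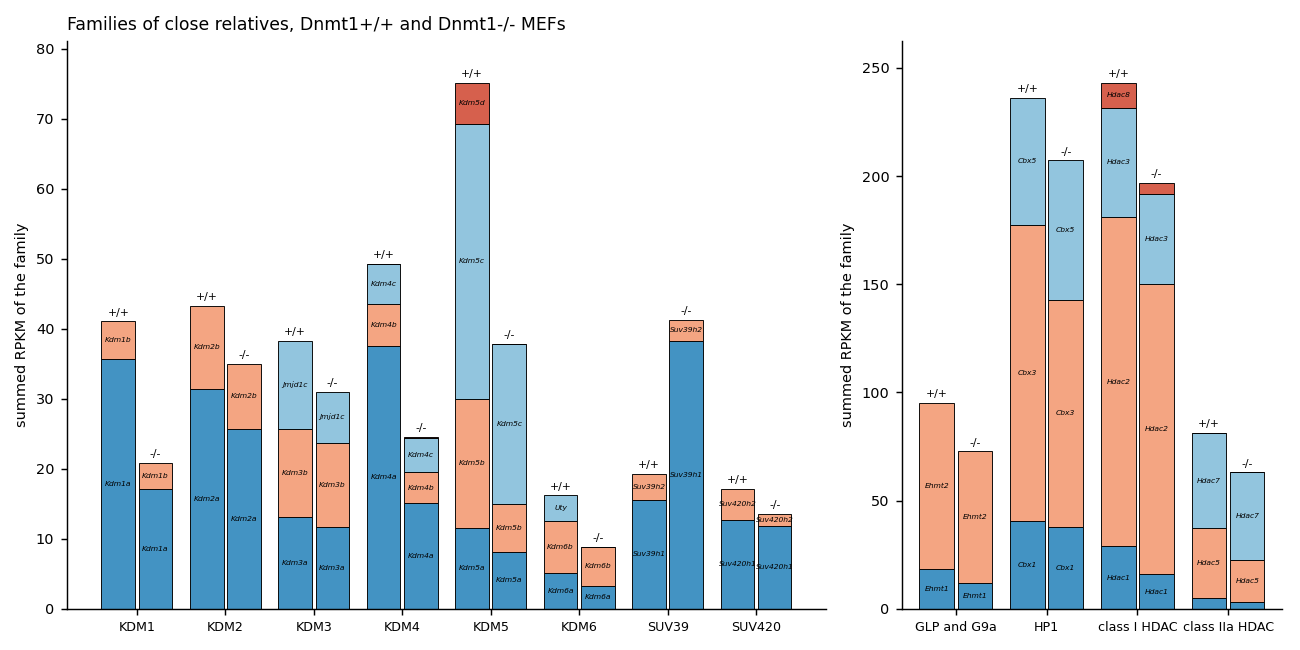
Summed RPKM of families of close relatives, each gene a segment, in Dnmt1+/+ (+/+) and Dnmt1-/- (-/-) MEFs, 1 library each; the right panel has its own scale. The KDM1, KDM4 and KDM5 columns are lower by close to 2-fold in Dnmt1-/- MEFs (41.1 and 20.9 RPKM for KDM1). The KDM6 column is 1.82-fold lower, and the SUV39 column is higher. Part of the KDM5 and KDM6 differences lies in the Y-linked Kdm5d and Uty.

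The relatives that are not among the 46 were taken from lists of 40 genes, of which 34 entries passed the filters, 2 of them past 2-fold higher (8.47% of all entries are) and 6 past 2-fold lower (10.9% of all entries are). Of 15 entries of other lysine methyltransferases, Suv39h1 (log2 change 1.29) was over 2-fold higher and none over 2-fold lower, with a median of -0.36. An entry of Mecom, at 0.788 and 1.59 RPKM, was 2.02-fold higher without the added 0.1, but its log2 change was 0.93. Of 10 other demethylases, Mina, a ribosomal histidine hydroxylase once described as an H3K9 demethylase, was higher with 13.8 and 32.2 RPKM. Kdm5d, Uty, Phf8 and Jhdm1d were lower, and the median of the 10 was -0.79. Phf8, an X-linked demethylase of H3K9 and H4K20, had 5.43 and 1.68 RPKM, and Jhdm1d, or KDM7A, a demethylase of H3K9 and H3K27, had 1.37 and 0.258 RPKM. Of 9 other deacetylases, the X-linked class I enzyme Hdac8, at 11.5 and 5.48 RPKM, and the mitochondrial sirtuin Sirt3, at 6.18 and 2.92 RPKM, were just past 2-fold lower. With the median change of all entries (-0.14) subtracted, both fall short of 2-fold. Of these relatives past 2-fold, Suv39h1, Mina, Jhdm1d and Sirt3 have exons that overlap a gene on the other strand, with the same limit as for Sirt1. The X-linked Hdac6, the tubulin deacetylase, had 10.1 and 9.13 RPKM. The 6 X-linked relatives had a median log2 change of -0.70. All 394 X-linked entries that passed the filters had one of -0.39. Of the 394, 40 were past 2-fold higher (8.47% of all entries are) and 98 past 2-fold lower (10.9% of all entries are).

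Protein partners of these enzymes were taken from 3 lists, which gave 38 entries, none past 2-fold higher (8.47% of all entries) and 2 past 2-fold lower (10.9% of all). None of 8 shared subunits of the H3K4 methyltransferase complexes passed 2-fold, and their median log2 change was 0.04, with Ash2l at 63.3 and 67.7 RPKM and the X-linked Hcfc1 at 27.5 and 21.6 RPKM. None of 20 subunits of the SIN3, NCOR, CoREST and NuRD corepressor complexes, in which LSD1 and the class I deacetylases work, passed 2-fold, and their median was -0.13, with the X-linked Tbl1x, an NCOR subunit, at 46.6 and 41.9 RPKM. Rcor1, the CoREST scaffold that holds LSD1, had 15.3 and 15.8 RPKM beside the lower Kdm1a and Hdac1. For the 10 partners of G9a, SETDB1 and TRIM28 the median log2 change was -0.45, and both of the partners past 2-fold lower were in this list. Atrx, the X-linked remodeller that loads histone H3.3 at H3K9me3 repeats with DAXX, had 38.1 and 11.9 RPKM (-1.67), and Daxx had 23.1 and 29.3 RPKM. Mphosph8, the HUSH complex subunit that reads H3K9me3, had 43.1 and 21.2 RPKM (-1.02), and its exons overlap Gm16973 on the other strand. It was just past 2-fold, and falls short of it with the median change of all entries (-0.14) subtracted. Fam208a and Pphln1, also HUSH subunits, had 4.95 and 2.61 RPKM (-0.90) and 26.6 and 30.1 RPKM (0.18). These mRNA differences have no measured error, and the complex itself was not measured.

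**Figure D5:**
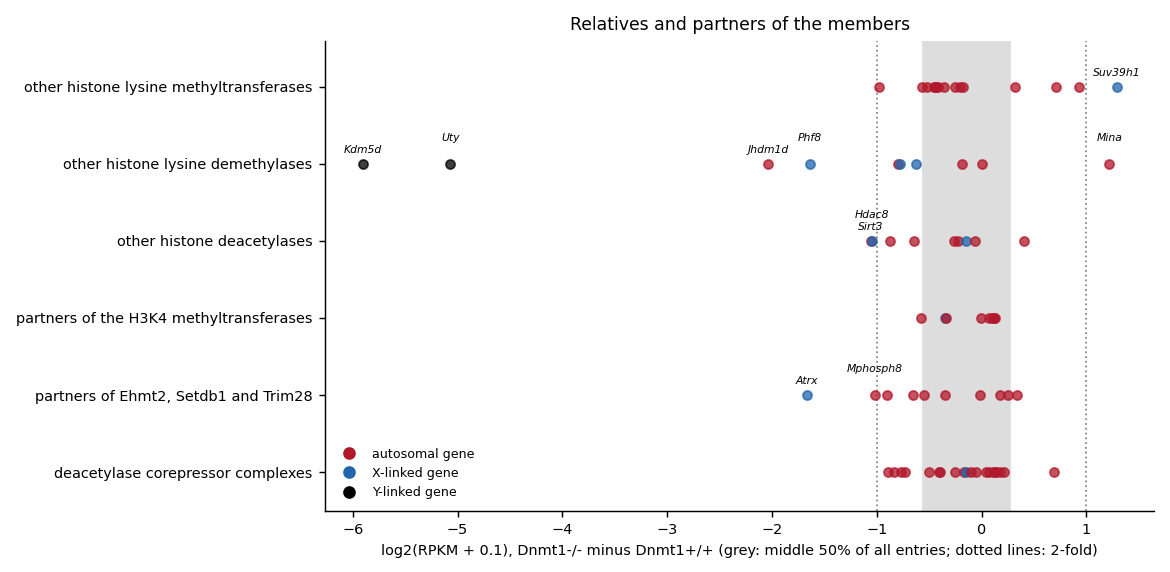
Each point is 1 entry of a list of relatives or partners, placed by its change on the log2(RPKM + 0.1) scale, Dnmt1-/- minus Dnmt1+/+ MEFs, and coloured by autosomal, X-linked or Y-linked position. Named are those past 2-fold (dotted lines): Suv39h1 and Mina to the right, and Kdm5d, Uty, Jhdm1d, Phf8, Hdac8, Sirt3, Atrx and Mphosph8 to the left; no subunit of the H3K4 methyltransferase or corepressor complexes is among them.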

How the data were processed

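Strand-specific mRNA libraries were sequenced from one end over 50 bases. The authors used TopHat to map reads to mm9 and Cufflinks to assemble transcripts, and they deposited the RPKM that Cuffdiff gave each entry, 1 column per library, with a status. Program versions, further scaling of the libraries and the use of strand in counting are not given in the sources used here. The deposited table also holds fold changes and p-values of the authors' own comparison, which were not used. Low RPKM values did not fall on steps of whole reads, so no counts were recovered and no count test was run.

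From the RPKM values, log2(RPKM + 0.1) was taken. Entries were kept if they had status OK, as in the study's methods, carried a gene symbol, and reached 1 RPKM in either library. Calls are 2-fold differences between 2 libraries, with no test. The calculation was run on values built to hold known changes, which checks its arithmetic only and not the noise of the libraries. The genes and all lists were chosen with earlier results of these data known. Every one of the 46 genes is named. Of relatives and partners, those past 2-fold, sex-linked genes and defining markers are named. Beside these are Mecom, Ash2l, Rcor1, Daxx, Fam208a and Pphln1, chosen after their values were seen. Start sites came from the GENCODE annotation of NCBIM37, and 31 of 33 windows found in RefSeq (GRCm38.p6) shared at least 30 bases with it. Copies were sought with minimap2 2.31-r1302. Alternatives were other pseudocounts (1 and 0.01), filters, thresholds, centrings, and treatment of joint or repeated entries. Python 3.11.15, numpy 2.4.6, pandas 2.3.3 and matplotlib 3.10.9 were used.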

Additional observations from a re-analysis of the deposited data

How the results depend on the processing

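No paired analysis was possible because there was 1 library per genotype, and for the same reason no library could be left out. With a 1.5-fold in place of a 2-fold threshold, 1 gene was higher and 12 were lower. The higher gene, Setdb2, fell short of 1.5-fold with a pseudocount of 1, at 0.52. The median log2 change of -0.33 was -0.31 with a pseudocount of 1, -0.19 with the median of all entries subtracted, -0.32 with joint entries left out and -0.32 with a mean RPKM of at least 5, the last chosen after the data were seen. The count of 5 lower genes was 4 with the median of all entries subtracted, which leaves out Kdm1a at -0.92, and 4 with a mean RPKM of at least 5, which drops Suv420h2. Under pseudocounts of 1 and 0.01, and with the median of ubiquitously expressed genes subtracted, 37 genes lay below 0 and 6 above it, and with the median of all entries subtracted 33 and 10. A difference of 1.5-fold to 2-fold in these libraries has no measured error to be set against.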
